A study of Mus musculus with 12 samples.

Results

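The mast cell genes followed here are 8 protease genes and 2 receptor genes: Cma1, Mcpt1, Mcpt2, Mcpt4, Cpa3, Tpsb2, Tpsab1, Mcpt8, Kit and Fcer1a. They were taken by symbol, make up 10 of 35241 gene symbols and cover 22 of 113193 transcripts. RNA of full-thickness distal colon was sequenced from 12 mice. Spry2IEKO mice (Vil1::Cre;Spry2-f/f, 6 mice) carry Cre under the villin promoter, which removes Spry2, an inhibitor of receptor tyrosine kinase signalling, from the intestinal epithelium only, and the controls are Spry2FF mice (Spry2-f/f, 6 mice), so the homozygous floxed allele is present in all mice and Cre in the Spry2IEKO mice alone. Each of 2 litters, A and B, gave 3 mice of each genotype, with 3 males and 3 females among the Spry2FF mice and 1 male and 5 females among the Spry2IEKO mice. The labels give an age of 6 weeks in one protocol and 8 weeks in another. Mice are called by the number of their library. The libraries of each litter also carry their own leading number in the table, so litter and whatever that number marks cannot be told apart. Levels are normalized TPM (kallisto's transcript abundance, a level per transcript length and library, scaled once more between mice by the authors), summed over the transcripts of a gene.

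Mast cells are tissue-resident granulocytes that store proteases, histamine and heparin in granules and release them when IgE bound to the receptor FcεRI is cross-linked. Kit is the receptor for stem cell factor, on which mast cells depend for survival. Mouse mast cells are sorted by their granule proteases: mucosal mast cells, which expand in the gut epithelium with type 2 immunity, store the chymases Mcpt1 and Mcpt2, whereas connective tissue mast cells store the chymases Cma1 (also called Mcpt5) and Mcpt4, the tryptases Tpsb2 and Tpsab1 and the carboxypeptidase Cpa3. Mcpt8 is a protease of basophils, and Fcer1a is the IgE-binding chain of FcεRI. Kit is also carried by interstitial cells of Cajal, the pacemaker cells of the gut muscle, and by secretory cells at the base of colonic crypts.

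Of the 10 genes, Cma1 and Kit alone had more than 13 estimated reads in any mouse. Together they held 98.5% of the 8262 reads that the values of these 10 genes stand for over all mice. Cma1 alone held 90.9% of the 1334 protease reads. Tpsab1, Mcpt8 and Fcer1a were listed at 0 in all 12 mice, and Mcpt2, Mcpt4, Tpsb2 and Cpa3 had between 0 and 10 reads in a mouse. The label of mast cell genes was therefore not borne out by the other markers, which were at 0 or had few reads. Fcer1a and Tpsab1 were at 0, and in 12 mice Cpa3 had 14 reads, Tpsb2 13 and Mcpt4 8. The mucosal chymases had more, with 61 reads for Mcpt1, which was read in every mouse, and 26 for Mcpt2. Cma1 and Kit are described below as single genes and not as a measure of mast cells.

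**Figure D1:**
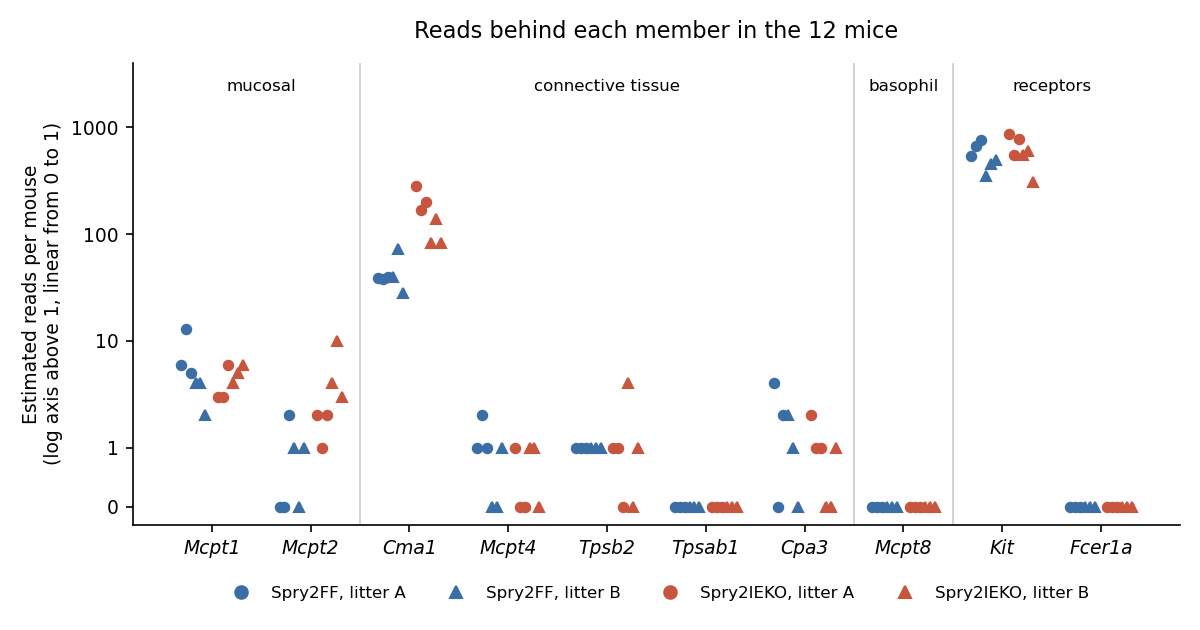
Estimated reads per mouse for each of the 10 genes, one symbol per mouse (blue, Spry2FF; red, Spry2IEKO; circle, litter A; triangle, litter B), on an axis that is logarithmic above 1 and linear from 0 to 1. Cma1 (28 to 283 reads) and Kit (307 to 861 reads) stand above the other genes, none of which passes 13 reads in a mouse.

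Reads were estimated from the values, since low levels of single-transcript genes were mostly whole multiples of what 1 read is worth at that length (69.2%). The 12 libraries stood for 7251799 (Spry2IEKO mouse 12) to 13471415 reads (Spry2FF mouse 2). In full tissue, fewer cells of a type and less RNA per cell cannot be told apart. Spry2 itself, read from all cell types of the tissue, was 22.8 to 32.3 normalized TPM in Spry2FF mice and 18.5 to 22.5 in Spry2IEKO mice, without overlap.

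The genes were chosen by their values in the contrast of genotypes, where Cma1 had stood out, so that contrast is described without a test. Litter, the relation between genes and the transcripts of a gene were not used in the choice, and tests are given for these. Among the 15880 genes with a mean level of at least 0.5, which include 3 of the 10 (Cma1, Mcpt1 and Kit), 0.403% did not overlap between genotypes and 0.189% were higher in every Spry2IEKO mouse than in every Spry2FF mouse. Of the 3, this held for 1, Cma1, whose values chose the set.

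Cma1 and 3 of the other chymase genes lie in one cluster of related proteases on chromosome 14 (GRCm38), Cma1 at 55941451 to 55944675 on the minus strand, Mcpt1 at 56017971 to 56020384, Mcpt2 at 56042041 to 56044642 and Mcpt4 at 56059629 to 56062313. Mcpt8 ends the series of Mcpt genes at 56082166 to 56085273, and genes for cathepsin G and granzymes follow. The 250 bases before the RefSeq start of Cma1, Mcpt1, Mcpt4 and Cpa3 (GRCm38.p6) are shown because Cma1 had many more reads than the others. Each runs 5′ to 3′ towards the gene. Capitals mark GATAA, the core bound by GATA factors, and TATAAA, the TATA box, each on either strand, so that TTATC is GATAA read on the other strand. No match of one motif overlapped a match of the other.
Cma1, chr14:55944676-55944925, minus strand: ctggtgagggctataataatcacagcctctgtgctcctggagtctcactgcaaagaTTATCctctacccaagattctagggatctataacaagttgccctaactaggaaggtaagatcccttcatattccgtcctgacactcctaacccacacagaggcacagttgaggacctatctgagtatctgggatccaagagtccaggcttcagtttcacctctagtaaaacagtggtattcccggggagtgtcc
Mcpt1, chr14:56017714-56017963, plus strand: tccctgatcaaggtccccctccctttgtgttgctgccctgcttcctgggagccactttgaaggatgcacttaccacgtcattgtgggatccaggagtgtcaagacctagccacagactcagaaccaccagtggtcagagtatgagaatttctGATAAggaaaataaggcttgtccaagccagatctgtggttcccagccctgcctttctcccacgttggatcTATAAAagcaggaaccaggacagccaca
Mcpt4, chr14:56062311-56062560, minus strand: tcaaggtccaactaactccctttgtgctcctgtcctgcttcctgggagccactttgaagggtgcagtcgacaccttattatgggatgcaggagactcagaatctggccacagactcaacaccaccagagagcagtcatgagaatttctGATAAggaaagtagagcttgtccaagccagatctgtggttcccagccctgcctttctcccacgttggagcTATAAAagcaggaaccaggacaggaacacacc
Cpa3, chr3:20242182-20242431, minus strand: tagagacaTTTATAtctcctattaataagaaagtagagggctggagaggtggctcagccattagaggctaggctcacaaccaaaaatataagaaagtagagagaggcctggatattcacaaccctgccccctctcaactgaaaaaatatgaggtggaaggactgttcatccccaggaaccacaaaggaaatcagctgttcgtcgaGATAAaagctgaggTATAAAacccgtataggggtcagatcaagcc
The Cma1 window holds 1 GATAA match, whose outermost base lies 194 bases before the start, and no TATAAA match. In Mcpt1 and Mcpt4, GATAA begins 98 and 102 bases before the start and TATAAA 28 and 32 bases before it. The Cpa3 window has GATAA 45 bases and TATAAA 31 bases before the start, and a second TATAAA match on the other strand 242 bases before it. Of 32851 promoter windows of this length, 22.6% hold GATAA and 12.4% hold TATAAA. The windows of Mcpt1 and Mcpt4 share an unbroken run of 53 bases, whereas the longest run that Cma1 shares with either is 10 bases.

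Cma1, a connective tissue type chymase that can convert angiotensin I, was the one protease with a clear level. In Spry2FF mice it was 3.33 normalized TPM at the lowest, 4.77 at the median and 9.06 at the highest (5.24 ± 1.98, SD, n = 6), from 28 to 72 reads a mouse. In Spry2IEKO mice it was 10.1 at the lowest, 21.7 at the median and 31.7 at the highest (21.3 ± 7.58, SD, n = 6), from 82 to 283 reads. Every Spry2IEKO mouse was above every Spry2FF mouse, with Spry2IEKO mouse 8 and Spry2FF mouse 10 next to each other at the border. The ratio of means was 4.06, and the difference on the log2(level + 0.5) scale was 1.90 (SE 0.26). By size of rise it ranked 24 of the 15880 genes. Since this contrast chose the gene, nothing is read from the separation.

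Split by litter, the 3 Spry2FF mice of litter A had 4.32, 4.75 and 5.17 normalized TPM of Cma1 (mice 2, 3 and 7), and the 3 Spry2IEKO mice 31.7, 25.8 and 23.9 (mice 4, 5 and 6). Litter B had 4.80, 9.06 and 3.33 (mice 9, 10 and 13) against 10.1, 19.4 and 16.6 (mice 8, 11 and 12). The genotypes did not overlap in either litter. The log2 difference was 2.39 (SE 0.14) within litter A and 1.41 (SE 0.38) within litter B. The difference between these, -0.99 on the log2 scale (SE 0.44), is given as a description. Among females alone the log2 difference between genotypes was 1.98, and with sex as a covariate 1.72.

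**Figure D2:**
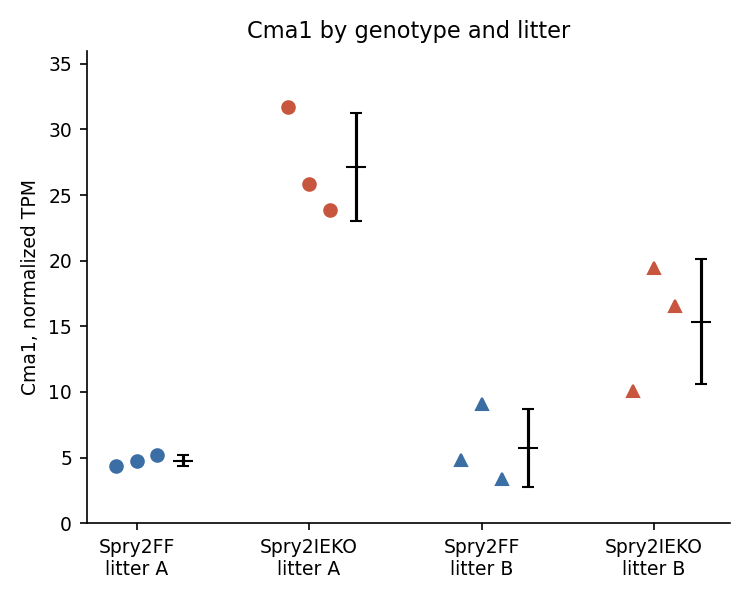
Cma1 in normalized TPM (linear axis from 0) for each mouse, by litter and genotype (circles, litter A; triangles, litter B), with black bars for the mean and SD of 3 mice. The Spry2IEKO mice of litter A (23.9 to 31.7) are the highest 3, and the Spry2FF mice of both litters stay between 3.33 and 9.06.

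Litter itself, the contrast that the choice had not used, left Cma1 at a log2 difference of -0.35 (litter B minus A, SE 0.25, limma adjusted p = 0.455), with 15.9 ± 12.5 normalized TPM in litter A and 10.55 ± 6.37 in litter B (SD, n = 6 each). The litters overlapped. Over all genes tested, limma called 4.38% by litter, 3.31% lower and 1.08% higher in litter B, and 0 of these 3 genes. At an unadjusted p under 0.05 it was 1 of the 3, Kit, beside 21.9% of all genes.

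Markers of other cells stood beside the Cma1 values. The summed level of 7 fat genes, led by Pck1, which other tissues also express, and the adipocyte gene Cfd, was 82.2 to 133 in Spry2FF mice and 103 to 673 in Spry2IEKO mice, with the 391 and 673 of Spry2IEKO mice 4 and 5 highest. The summed level of 5 B cell genes spanned 1.31 to 126 in Spry2FF and 5.17 to 305 in Spry2IEKO mice. The 8 genes of colonic epithelium summed to 8442 to 10814 in Spry2FF and 6725 to 8930 in Spry2IEKO mice, although the goblet cell mucin Muc2 was the other way (864 ± 108 against 1246 ± 162, SD, n = 6 each). Limma called 0 genes of these 3 lists by genotype, with 1 fat gene, 0 B cell genes and 7 epithelial genes at an unadjusted p under 0.05, which 6.18% of all genes had. Their part in the level of Cma1 was not tested.

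The annotation gives Cma1 2 coding transcripts, of 1090 and 1074 bases, and the estimates moved between them from mouse to mouse. The 1074-base transcript lies whole inside the other. Only the 14 bases before its start and the 2 after its end tell them apart, in the first and the fifth exon:
first 14 bases of the 1090-base transcript: agttatgaagacaa
In 4 mice more than 99% of Cma1 was given to the longer transcript and in 4 mice less than 1%, and both extremes occurred among Spry2FF mice (mouse 7 and mouse 2, for example). All 4 mice under 1% were Spry2FF, whereas the longer transcript took 32.7% or more in each Spry2IEKO mouse. The 4 mice over 99% were Spry2FF mice 7 and 10 and Spry2IEKO mice 6 and 12. A difference in the split between genotypes was not tested. Of the 1060 words of 31 bases in the longer transcript, 16 are not in the shorter one. Levels of Cma1 are therefore given as the sum of both. Taking the longer transcript, which had the higher mean, alone gave a log2 difference of 3.45 between genotypes in place of 1.90.

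**Figure D3:**
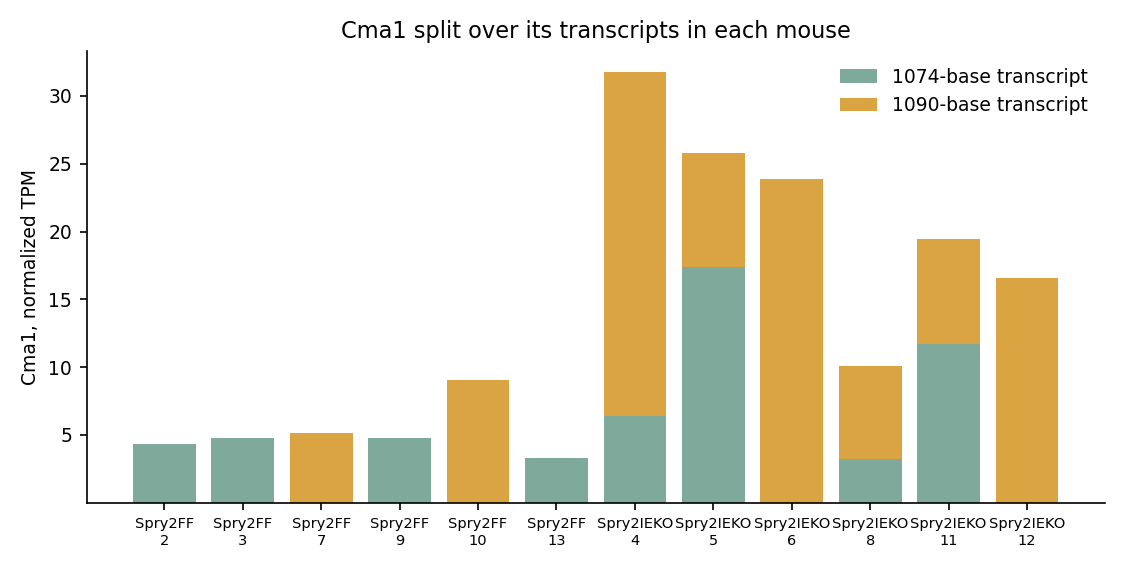
Cma1 in normalized TPM in each of the 12 mice as stacked bars, split over its 1074-base and 1090-base transcripts. The split swings from all of one to all of the other between Spry2FF mice and from 32.7% to nearly all of the longer one between Spry2IEKO mice, while the height of the bar keeps the genotypes apart (3.33 to 9.06 against 10.1 to 31.7).

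Of all words of 31 bases in Cma1, 10.6% are shared with another gene, the pseudogene Gm48934, which was listed at 0 in every mouse. Levels were low in the rest of the cluster. Of 16 genes in order from Cma1 to Gzmb, 8 were listed at 0 in all mice, and Cma1 was the 1 gene with over 100 reads in the 12 mice. Cma2, the nearest coding chymase gene to Cma1 on the map, was at 0. The 9 nearest tested genes outside the set, 5 at lower and 4 at higher coordinates, had log2 differences between genotypes of -0.13 to 0.41, with 0 called by limma and 1 (Cenpj, a centriole gene) at an unadjusted p under 0.05. By litter 0 of the 9 were called and 2 had an unadjusted p under 0.05. Spry2 lies on the same chromosome, 49.9 Mb away.

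**Figure D4:**
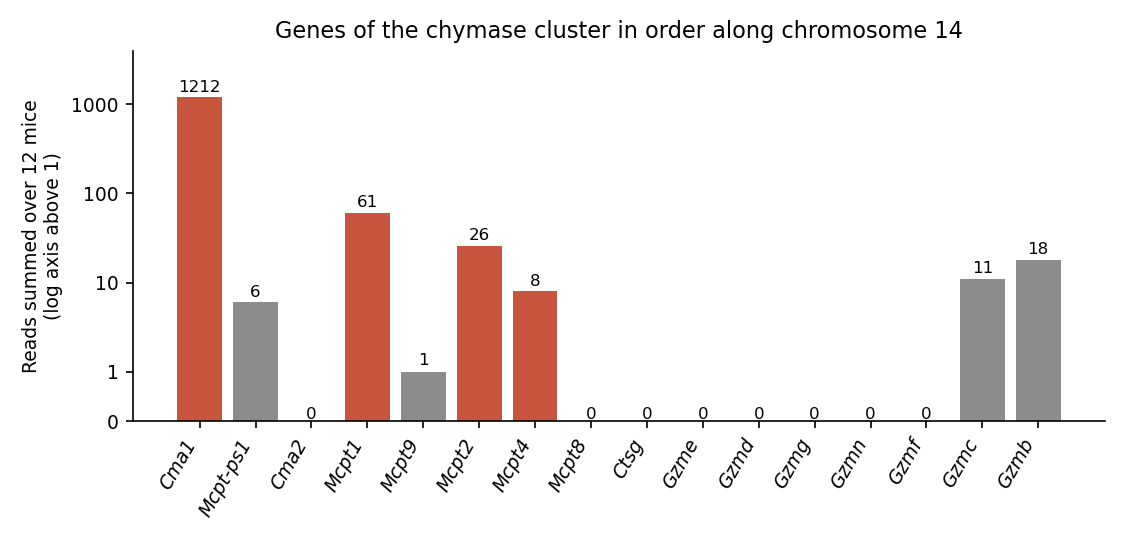
Reads summed over the 12 mice for the protease genes of the chymase cluster, in their order along chromosome 14 (red, genes of the set; grey, others), on an axis that is logarithmic above 1. Cma1 has 1212 reads, Mcpt1 61, Mcpt2 26 and Mcpt4 8, and 8 of the 16 genes are at 0.

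The mucosal chymases were low in all mice. Mcpt1, the marker chymase of intestinal mucosal mast cells, was 0.26 at the lowest, 0.63 at the median and 1.74 normalized TPM at the highest in Spry2FF mice (0.75 ± 0.52, SD, n = 6), and 0.36, 0.65 and 1.32 in Spry2IEKO mice (0.71 ± 0.34, SD, n = 6). These levels stand for 2 to 13 reads a mouse and 61 in all. The genotypes overlapped throughout, with a log2 difference of -0.01 (SE 0.27), and Spry2FF mouse 3 was the highest. Mcpt1 averaged 0.80 ± 0.49 in litter A and 0.65 ± 0.36 in B (SD, n = 6 each; log2 difference -0.15, SE 0.27, limma adjusted p = 0.780). The Spry2IEKO to Spry2FF ratio of means was 0.52 among litter A mice but 1.97 among those of B, both resting on these few reads.

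Mcpt2, the second mucosal chymase, had 0 to 2 reads in each Spry2FF mouse (0 to 0.27 normalized TPM) and 1 to 10 reads in each Spry2IEKO mouse (0.16 to 1.43). The sums were 4 reads against 22. Spry2IEKO mouse 11 alone held 10 of them, and the genotypes overlapped. Its mean of 0.31 left it out of the fit over all genes. The mucosal pair summed to 87 reads, 38 in Spry2FF and 49 in Spry2IEKO mice.

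Without Cma1, the connective tissue proteases gave fewer reads than the mucosal pair. Mcpt4, a chymase of connective tissue mast cells, had 0 to 2 reads a mouse and 8 in all. Tpsb2, the main mouse mast cell tryptase, had exactly 1 read in each of the 6 Spry2FF mice and 0 to 4 in the Spry2IEKO mice, 13 in all. Cpa3, the carboxypeptidase of mast cell granules, had 0 to 4 reads, 9 over the Spry2FF and 5 over the Spry2IEKO mice. Tpsab1, the second tryptase, was listed at 0. The 4 genes summed to 35 reads, 20 in Spry2FF and 15 in Spry2IEKO mice, against 1212 of Cma1. In these 4 genes the genotypes overlapped or were at 0, at levels of at most 0.49 normalized TPM and 0 to 4 reads of a gene in a mouse. Their summed reads did not rise with those of Cma1, which were 256 in Spry2FF and 956 in Spry2IEKO mice. A difference between genotypes was not tested in them.

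A count of 0 limits the genes that were not seen. At 3 reads a library, the limit was 0.30 to 0.56 normalized TPM for Tpsab1, 0.39 to 0.72 for Mcpt8 and 0.37 to 0.67 for Fcer1a, over the depths of the 12 mice and for counting error only. A level below that can also give a count of 0 in one library. Reads of Mcpt1, Mcpt2 and Mcpt4 can go to a relative, as 6.71%, 5.14% and 12.2% of their 31-base words occur in another gene, mostly Cma2 and Mcpt9 for Mcpt4. Tpsb2 and Tpsab1 share 0.86% and 0.80% of theirs, and Cpa3, Kit, Fcer1a and Mcpt8 share none.

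For the 7 genes with any read, litters were also exchanged within genotype in an exact two-sided permutation test over 400 arrangements, whose smallest p is 0.005. No gene passed adjustment over the 7. Mcpt2 (log2 difference 0.44, litter B higher) and Kit (-0.29, litter B lower) had the smallest values, both with exact p = 0.065 and adjusted p = 0.228.

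Kit was the most abundant of the 10 genes in 9 of 12 mice. In Spry2FF mice it was 12.8 at the lowest, 15.8 at the median and 21.01 normalized TPM at the highest (16.7 ± 3.43, SD, n = 6), and in Spry2IEKO mice 15.4, 21.4 and 24.2 (20.4 ± 3.39, SD, n = 6). The genotypes overlapped. Their log2 difference was 0.29 (SE 0.14), and it was 0.29 among the mice of litter A and 0.30 among those of B. Between litters, Kit was 20.4 ± 3.51 in A and 16.7 ± 3.32 in B (SD, n = 6 each), a log2 difference of -0.29 (SE 0.12) that did not pass (limma adjusted p = 0.201). Scaling every mouse to the same total, which moved the median of all genes from -0.05 to -0.12, gave -0.36 for Kit (limma adjusted p = 0.078), and quantile normalization gave -0.22.

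The sum hid a split between kinds of transcript. Kit has 8 annotated transcripts, of which 2 code for the receptor and 6 are annotated with a retained intron. The coding pair was 7.70, 11.4 and 15.3 normalized TPM in the Spry2FF mice of litter A (mice 2, 3 and 7) and 4.04, 6.19 and 4.67 in those of litter B (mice 9, 10 and 13). In Spry2IEKO mice it was 14.3, 12.997 and 12.2 in litter A (mice 4, 5 and 6) and 9.14, 9.12 and 5.16 in litter B (mice 8, 11 and 12). Within each genotype, every mouse of litter A was above every mouse of litter B. Over both genotypes the coding pair was 12.3 ± 2.66 in A against 6.39 ± 2.24 in B (SD, n = 6 each), a log2 difference of -0.93 (exact two-sided permutation within genotype, p = 0.005, the smallest it can give, adjusted p = 0.015 over 3 tests). The retained intron transcripts went the other way, 8.10 ± 2.09 in A and 10.3 ± 2.66 in B (log2 difference 0.32, exact permutation p = 0.175, adjusted p = 0.175). This split was chosen after the values had been seen.

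**Figure D5:**
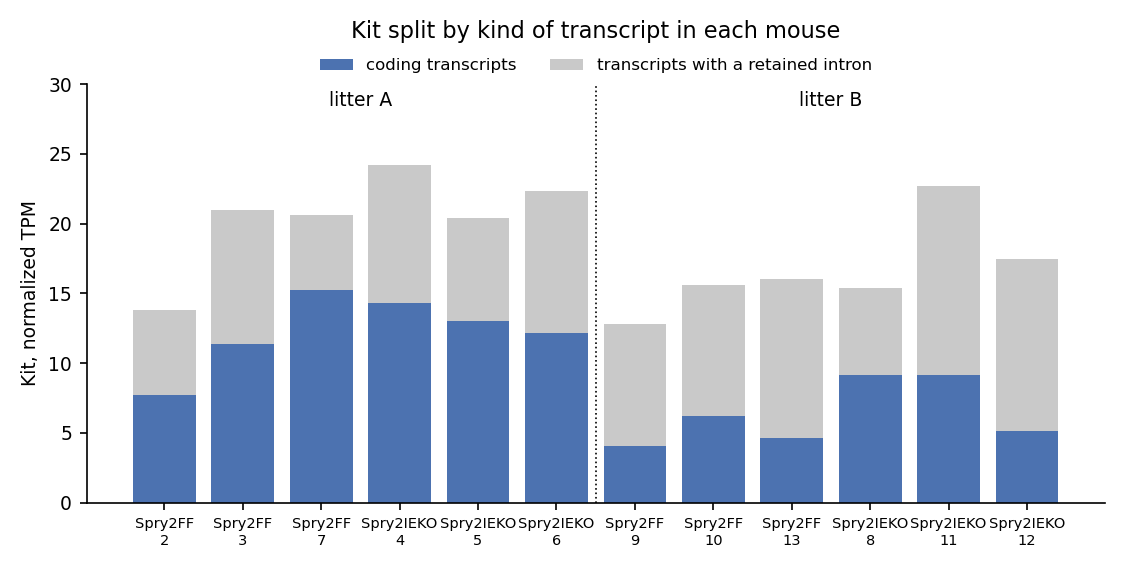
Kit in normalized TPM in each mouse as stacked bars, coding transcripts below and transcripts with a retained intron above, with litter A on the left and litter B on the right. Coding transcripts are 7.70 to 15.3 in litter A and 4.04 to 9.14 in litter B, while the full bars of the litters overlap (13.8 to 24.2 and 12.8 to 22.7).

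The coding share of Kit averaged 60.2% ± 7.67 in litter A against 38.3% ± 11.5 in B (SD, n = 6 each), a difference of -21.9 percentage points (exact permutation within genotype, p = 0.015, adjusted p = 0.0225). The table as a whole moved in the same direction. In 5095 genes with both kinds of transcript, the median gene's coding share was 86.5% to 87.5% in the mice of litter A and 80.0% to 85.5% in those of litter B, and 8.07% of these genes had a lower coding share in litter B within both genotypes without overlap. Kit is not among these, since Spry2IEKO mouse 8 (59.5%) lay inside the range of its litter A mates. Its drop was deep, as 0.962% of the genes fell by as much or more, but summed coding transcripts separated the litters downwards in 6.86% of all genes with a coding level of at least 0.5. Retained intron transcripts took 4.53% to 5.08% of a mouse's total in litter A and 4.72% to 5.99% in litter B. How much of the Kit difference follows this shift was not tested.

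Interstitial cell and stroma markers are set beside Kit. The 6 genes of interstitial cells of Cajal, led by Thbs4 and the chloride channel Ano1, summed to 331 to 511 in Spry2FF and 293 to 447 in Spry2IEKO mice. By litter they were 377 to 511 in A and 293 to 419 in B, 6 of 6 were lower in B with a median log2 difference of -0.32, and 0 of 6 were called by limma (2 at an unadjusted p under 0.05) against the background of 4.38%. The 6 fibroblast genes summed to 455 to 749 in A and 258 to 433 in B, and 4 of 6 were called lower in litter B: Col1a1, Col1a2, Col3a1, the fibrillar collagens, and Pdgfra, the fibroblast receptor. The share of their movement in Kit was not tested. With the interstitial cell genes, Pearson r of Kit was -0.27 (Edn3) to 0.78 (Prkcq) in the 6 Spry2FF mice. In the 6 Spry2IEKO mice it was -0.05 (Edn3) to 0.52 (Prkcq). Over the 12 mice it was 0.02 to 0.42 (median 0.15), and with the 5 B cell genes 0.61 to 0.71. With the 8 epithelial genes it ran from -0.77 to 0.66 with a median of -0.57, Muc2 being the highest. The median was 0.61 over the 7 tested mast cell receptor and signalling genes, 0.65 over the 4 transcription factors, 0.30 over the 10 granule genes, 0.37 over the 6 fibroblast genes and -0.48 over the 8 smooth muscle genes. These are descriptions over 12 libraries that all values share.

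Whether these genes vary together from mouse to mouse was tested for Cma1, Mcpt1 and Kit, in 5 correlations adjusted together. None passed. Cma1 and Kit gave r = 0.89 and rho = 0.77 in the 6 Spry2IEKO mice (exact permutation p = 0.0167 and 0.103, adjusted p = 0.0833 for r), and r = 0.02 and rho = -0.03 in the 6 Spry2FF mice (exact permutation p = 0.969 and 1, adjusted p = 0.969). Without the 2 mice farthest from the median of Cma1, r was 0.55 in Spry2IEKO and 0.58 in Spry2FF mice, each over 4 mice. Without one Spry2IEKO mouse, r there was 0.72 (without mouse 8) to 0.96 (without mouse 11). As deviations from the mean of each genotype and litter, the pair gave r = 0.42 over 12 mice (permutation p = 0.170, adjusted p = 0.473). Kit and Mcpt1 gave r = 0.20 and rho = 0.22 over all 12 mice (permutation p = 0.534 and 0.50, adjusted p = 0.890), and Cma1 and Mcpt1 0.13 in Spry2FF and -0.32 in Spry2IEKO mice (exact permutation p = 0.736 and 0.524, adjusted p = 0.920 and 0.890). Within litters, Kit and Mcpt1 gave r = -0.11 in A and 0.40 in B (exact permutation p = 0.767 and 0.439, n = 6 each). For Cma1 a genotype within a litter has 3 mice, too few for a value.

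Among the genes whose pattern over the 12 mice was most like that of Cma1 were Cps1, the first enzyme of the urea cycle (r = 0.92), Etv5, an ETS transcription factor (0.92), Itga2, the collagen-binding integrin alpha 2 chain (0.90), and the unnamed gene model Gm27038 (0.89). Because the genotypes of Cma1 do not overlap, r was also taken after removing the mean of each genotype, and was 0.80, 0.78, 0.86 and 0.61 for these 4, none of which is in the mast cell lists. Kit was followed most closely by Cbfa2t3 (0.94), Cog6, Hs3st3b1, Bace2 and Gfi1 (0.90 to 0.91). For Mcpt1 the nearest was Abhd17c (0.85), and for Cpa3, with 14 reads, Csrnp1 (0.86), and neither is more than a likeness to a few reads.

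The wider mast cell programme was read from 36 further genes for receptors, mediators, transcription factors and growth factors. Of these, 26 were tested, and limma called 0 by genotype (0.0315% of all genes) and 0 by litter (4.38% of all genes). At an unadjusted p under 0.05 there were 2 by genotype, where 6.18% of all genes passed, and 9 by litter, where 21.9% did. By genotype 17 were higher and 9 lower in Spry2IEKO mice, with a median log2 difference of 0.22 beside 0.01 over all genes. By litter 7 were higher and 19 lower in B, with a median of -0.25 beside -0.05.

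Genes that mark mast cells most tightly were again low. Ms4a2, the beta chain of FcεRI, had 3 reads in 12 mice, Mrgprb2, the receptor for basic peptides on connective tissue mast cells, had none, Gata1 had 1 read and Hdc, the histamine-forming enzyme, 64. Among the 11 genes of receptors and signalling, 7 were tested and had a median log2 difference between genotypes of 0.30. These 7 are shared with other leukocytes: Fcer1g, the common gamma chain, was 12.8 ± 4.09 in Spry2FF and 15.2 ± 6.04 in Spry2IEKO mice (SD, n = 6 each), and Btk, a kinase that B cells also use, 2.32 ± 2.53 and 4.11 ± 4.44. In the same mice the B cell genes had the spread given above.

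Of the 11 granule and mediator genes, 10 were tested, with 0 called by litter (3 at an unadjusted p under 0.05) and 0 by genotype (1). Rab27b, which moves granules to the membrane in many secretory cells, was 27.1 ± 5.79 in Spry2FF and 37.9 ± 6.67 in Spry2IEKO mice (SD, n = 6 each; log2 difference 0.48, SE 0.14, limma adjusted p = 0.609). Alox5ap, a leukotriene pathway protein, had a log2 difference of -0.62 between litters (SE 0.38, limma adjusted p = 0.355). The transcription factor Gata2 was 1.40 ± 0.65 in litter A and 0.54 ± 0.25 in B (SD, n = 6 each; log2 difference -0.82, SE 0.22, limma adjusted p = 0.0533), and was not called. The other 3 tested factors of its list of 6 (Mitf, Stat5a and Stat5b) had log2 differences of -0.35, -0.26 and -0.28 (limma adjusted p = 0.224, 0.227 and 0.171). All 4 had an unadjusted p under 0.05, as did 21.9% of all genes, of whose calls most were lower in B.

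Among growth and priming factors, 5 of 8 were tested, and Il3 and Il9 were listed at 0. The alarmin Il33 was 11.6 ± 2.38 in Spry2FF and 15.2 ± 1.13 in Spry2IEKO mice (SD, n = 6 each; log2 difference 0.40, SE 0.12, limma adjusted p = 0.653). Kitl, the ligand of Kit, was 35.6 ± 5.01 and 34.2 ± 4.77 (log2 difference -0.06, SE 0.11, limma adjusted p = 0.950). Tgfb1 had a log2 difference of -0.66 between litters (SE 0.23, limma adjusted p = 0.122). Kit, the receptor of Kitl, spanned a 1.88-fold range from the lowest to the highest mouse.

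Other proteases near the mast cell genes were mostly at 0. Of 17 listed, 16 were in the table and 10 at 0 in every mouse. Gzmb had 18 reads in 12 mice, Gzmc 11, Mcpt-ps1 6 and Mcpt9 1. The 2 genes that reached the level for a test were Tpsg1, a membrane-anchored tryptase next to Tpsb2 and Tpsab1 on chromosome 17, at 13.2 ± 4.36 normalized TPM in Spry2FF and 18.3 ± 5.03 in Spry2IEKO mice (SD, n = 6 each; log2 difference 0.49, SE 0.24, limma adjusted p = 0.826), and Prss30, an epithelial protease, at 184 ± 44.4 and 137 ± 54.2 (log2 difference -0.48, SE 0.24, limma adjusted p = 0.826). Of 5 basophil genes, Prss34 was at 0 like Mcpt8, and the 2 tested, Il3ra and Csf2rb, are shared with other leukocytes.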

How the data were processed

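Full-thickness distal colon of 12 mice was sequenced, and genotype, litter and sex were read from the labels. The authors estimated transcript abundance with kallisto. The submitters' processing notes name CASAVA, kallisto, sleuth and the build mm10. The deposited signal is TPM scaled once more between mice, as totals ran from 918816 to 1069158. The tests planned for TPM were applied to this signal unchanged. The authors' own test statistics, p-values and q-values in the table were not used.

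Of 113974 entries, 781 repeated a transcript with the same values and were dropped. Symbols that had turned into dates (28) were restored, and transcripts were summed by gene symbol. Positions came from GENCODE M21 (GRCm38), which holds 109294 of the transcripts, and promoter windows from RefSeq. Estimated reads divide a value by the worth of 1 read at that length, which was found from 9500 genes of 1 transcript. Of low values, 69.2% were whole within 0.05 reads (10% by chance), so reads are estimates, no count test was run, and floors of 3 reads cover counting error only.

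Limma 3.58.1 in R 4.3.3 was fitted to genes averaging 0.5 or more (trend, two-sided, Benjamini-Hochberg) on log2(normalized TPM + 0.5), which understates changes of low genes, with genotype as covariate for litter and none for genotype. The fit was tested on simulated data. Permutations and correlations used Python 3.11.15, NumPy 2.4.6, pandas 2.3.3 and SciPy 1.17.1 (exact, or 100000 resamples over 12 mice), and plots matplotlib 3.10.9. The members and lists were chosen with earlier results of these data known. Named genes were the 10 members, up to 4 detected genes of each list with the largest litter or genotype difference, the 5 genes most alike in pattern to Cma1, Cpa3 and Mcpt1, and the 5 tested coding genes on each side of Cma1. Some items are not reported here. The genes most alike to Kit, and list genes outside this rule such as Hdc, Fcer1g and Kitl, were picked with their values in view. Other settings covered scaling, the pseudocount, filtering, covariates, subsets of mice, the top transcript and leaving out each mouse.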

Additional observations from a re-analysis of the deposited data

Results flagged for a closer look

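In 28 groups of 6 mice, formed by genotype or by litter, 6 values stood apart from the nearest other mouse by more than Dixon's 95% limit on the gap over the range. Chance flags about 1 in 20 groups, and the groups by genotype and by litter share mice. Mcpt1 in Spry2FF mouse 3 (1.74 normalized TPM, 13 reads) was far above the others both among the Spry2FF mice and in litter A. Mcpt2 in Spry2IEKO mouse 11 (1.43 normalized TPM, 10 reads) was far above the other Spry2IEKO mice. Cma1 in Spry2FF mouse 10 (9.06 normalized TPM, 72 reads) stood above the other Spry2FF mice, which ran from 3.33 to 5.17, and below all Spry2IEKO mice. Without it the log2 difference of Cma1 between genotypes was 2.06 in place of 1.90. Kit in Spry2FF mouse 2 was the lowest of litter A (13.8 normalized TPM), where the others were 20.4 to 24.2. Tpsb2 was listed at 0 in Spry2IEKO mouse 6, the lowest of litter A, where the other mice had 1 read each.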

How the results depend on the processing

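No paired analysis was possible because the replicate numbers in the labels are library numbers, and the genotypes share none. With litter as a covariate, the genotype comparison called 6 genes in place of 5. The difference of Cma1 was 1.90 (SE 0.25) as before, which 3 mice of each genotype in each litter make certain. The difference of Cma1 between genotypes ran from 1.41 in litter B to 3.45 with the top transcript. In any subset of mice its sign was fixed beforehand, since the genotypes of Cma1 do not overlap, so nothing is read from it. The count of genes called by litter (696 of 15880) was 422 with no filter, 1456 with every mouse scaled to the same total, 1 each in females, Spry2FF mice and Spry2IEKO mice alone, and 180 to 957 without one mouse. The share of those calls that were higher in litter B was 24.6%, against 7.21% at the same total and 43.8% with quantile normalization. The genotype count (5) was 1 with no filter, 2 with quantile normalization, 1 with sex as a covariate, 2 in females, 2 with the top transcript, 2 in litter A, 1 in litter B and 1 to 11 without one mouse, with 11 without Spry2IEKO mouse 8. The count for litter by genotype (2) was 0 in females and 2 to 5 without one mouse. The correlation count was 0 under all alternatives. Without one mouse the litter difference of Mcpt1 ran from -0.31 to 0.036 (the latter without Spry2FF mouse 3), and it turned to 0.20 in females and 0.37 in Spry2IEKO mice, that of Cma1 to 0.15 in Spry2FF mice, and that of Kit to 0.65 with the top transcript and 0.32 for retained intron transcripts, a split added after seeing the data. The litter by genotype difference of Kit (0.01) turned to -0.09, -0.08 and -0.08 without Spry2FF mice 3, 7 and 9 and to -0.05 and -0.14 without Spry2IEKO mice 5 and 11. Its highest value without one mouse was 0.21 (Spry2FF mouse 2), and it was 0.22 both in females and with sex as a covariate. In Spry2FF mice r of Cma1 and Kit turned to -0.071, -0.0030, -0.015 and -0.0096 without mice 2, 7, 9 and 13 and was 0.29 without mouse 10. There r of Cma1 and Mcpt1 turned to -0.037 without the 2 farthest mice and ran from -0.35 (without mouse 13) to 0.60 (mouse 10). In Spry2IEKO mice it ran from -0.94 (without mouse 8) to 0.0024 (mouse 4). The cause of these changes was not tested. Of the 10 members, depth limits all but Cma1 and Kit.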
